A study of Homo sapiens with 2 samples.

Results

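Glycolysis and hypoxia genes were followed in RKO, a human cell line derived from a colorectal carcinoma, in which cells received either a control siRNA (siNC) or an siRNA against hnRNPU (sihnRNPU). hnRNPU is an abundant nuclear protein that binds RNA and chromatin. The 40 genes were taken by symbol from the deposited table of 40205 genes, and all 40 were found. They comprise 17 glycolytic enzymes, 13 other targets of hypoxia signalling, and 10 genes for the hypoxia-inducible factor subunits, the glucose and lactate transporters and the regulators of glycolytic flux. Each group held 1 library of total RNA, so no value below has a replicate check, the conditions were not tested against each other, and a gene called higher or lower is so in this pair of libraries. The sources used here do not state the oxygen level of the cultures, the time after transfection or the number of cultures behind each library.

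Glycolysis splits glucose into pyruvate in the cytosol, and lactate dehydrogenase then turns pyruvate into lactate, which restores the NAD+ that the pathway consumes. The hypoxia-inducible factors pair an oxygen-sensitive alpha subunit (HIF1A or EPAS1) with the stable partner ARNT. When oxygen is present, prolyl hydroxylases of the EGLN family mark the alpha subunit for degradation, and when oxygen is low the factor accumulates and switches on genes for glucose uptake, glycolysis, blood vessel growth, acid handling and mitophagy. Many tumour cells keep glycolysis high in the presence of oxygen as well, so the same enzymes are read both as hypoxia targets and as general growth genes.

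The control library held 31801650 reads and the knockdown library 39807025, as read from the steps between low values, and 11607 and 11462 genes reached 1 FPKM (fragments per kilobase of gene, scaled to the depth of the library). HNRNPU, the targeted gene, stood at 239 FPKM with the control siRNA and at 75.4 FPKM with its own siRNA, 31.5% of the control level. Of 8 colon and epithelial markers, EPCAM, KRT8, KRT18 and CDX2 were measured in both libraries, while CDH1, CDH17 and KRT19 were listed at 0 and VIL1 reached at most 0.00918 FPKM. The 10 markers of fibroblasts, blood and endothelium were at most 0.00848 FPKM in either library. In bulk RNA, a shift in every cell cannot be told apart from a larger shift in some of the cells.

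Most members differed little between the libraries, and more of them were higher than lower. Ratios are given as log2 of (FPKM + 1) in the knockdown library over (FPKM + 1) in the control library, and a gene counted as measured at a mean of 1 FPKM or more over the 2 libraries. Of the 40 members 38 were measured, with EGLN3 below that level and BNIP3 listed at 0 in a row on a patch scaffold of the assembly. Of these 38, 27 (71.1%) had a ratio above 0, against 50.0% of the 11567 genes measured, and their median ratio was 0.15. The median over all measured genes was 0.00, with an SD of 0.33 across genes and quartiles of -0.20 and 0.20. No member reached a ratio of 1 or of -1, limits that 0.354% and 0.657% of all genes passed. At 0.5 only PGAM1 was counted as higher, and at -0.5 only CA9 as lower, against 5.4% and 6.41% of all genes. These 2 counts of 1 are at or under the share seen across the table.

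**Figure D1:**
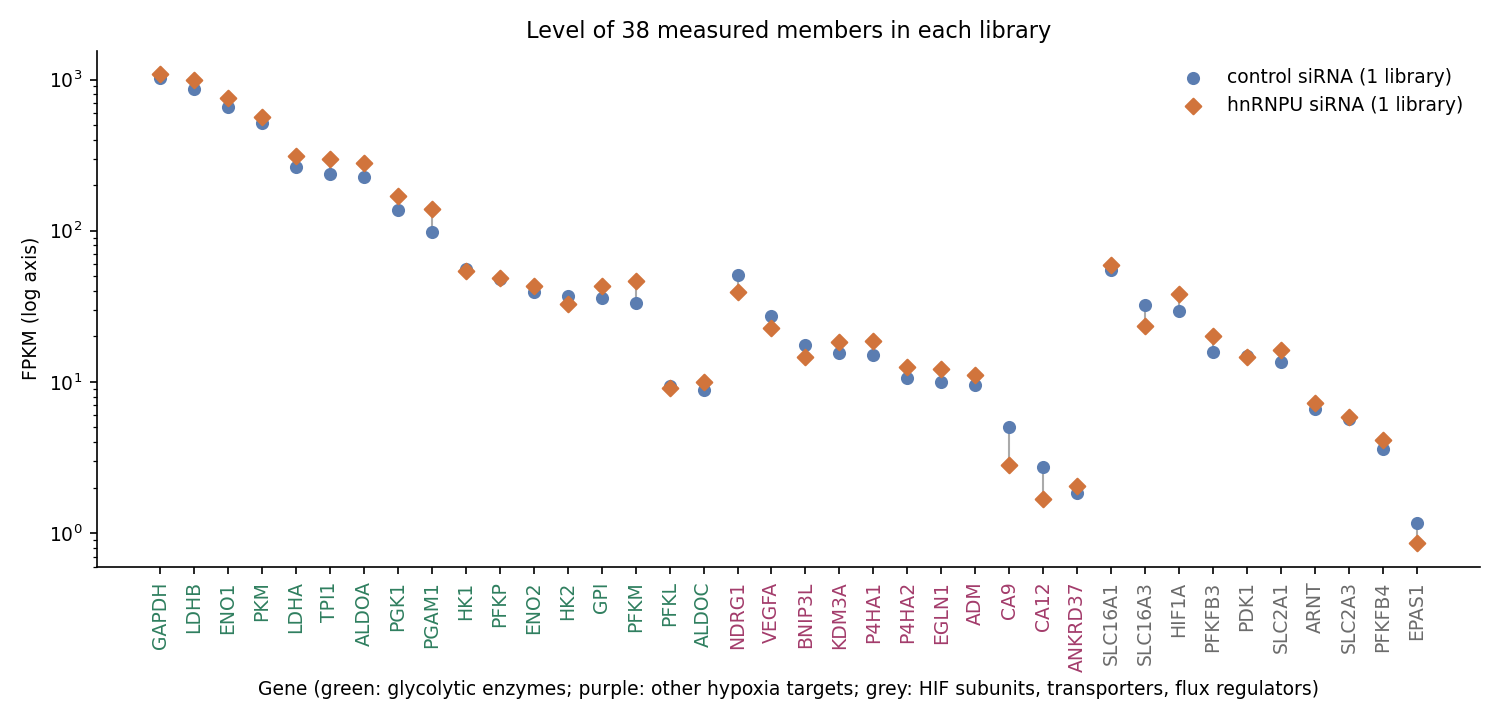
FPKM of the 38 measured members in the control siRNA library (blue circles) and the hnRNPU siRNA library (orange diamonds) on a log axis, ordered within class by the control level. Each class holds genes of very different abundance, and within nearly every pair the 2 libraries lie close together, with CA9, CA12, PGAM1 and PFKM showing the widest gaps.

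Counting error was small for most of them. Reads were recovered from the FPKM values, and exact 95% intervals of the FPKM ratio were computed from them, which cover counting error only. A factor shared by reads and length cannot be seen, so some recovered reads can be too few and their intervals too wide. The interval lay above 1 for 20 of the 38 measured members and below 1 for 9, against 32.5% and 30.7% of the 11184 genes with recovered reads. It included 1 for 8 members, and PGAM1 had no interval because its reads could not be recovered. Intervals leave out 1 more often in abundant genes, and many members are abundant. Among all genes with a mean of 10 to 100 FPKM, the interval lay above 1 for 2020, below 1 for 1347 and included 1 for 1173. At 100 FPKM or more these counts were 267, 219 and 44. An interval that leaves out 1 says that these 2 libraries differ in that gene beyond sampling of reads, not that the conditions do.

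Among the enzymes of the first steps of glycolysis, HK1, HK2 and PFKL were lower in the knockdown library and the others higher. HK1, the widely expressed hexokinase that traps glucose as glucose-6-phosphate, stood at 55.7 FPKM with the control siRNA and 53.8 FPKM with the hnRNPU siRNA. HK2, the isozyme that many tumours induce, stood at 36.95 FPKM and 32.6 FPKM in the same order. Both isozymes were thus slightly lower in the knockdown library, with FPKM ratios of 0.966 (interval 0.935 to 0.997) for HK1 and 0.883 (0.858 to 0.910) for HK2. The interval of HK1 ends close to 1 and does not cover the scaling of the libraries. The log2 ratio of HK1, -0.05, was -0.02 after rescaling to the same FPKM sum. GPI, which converts glucose-6-phosphate to fructose-6-phosphate, was higher at 43.4 against 35.9 FPKM, a ratio of 1.21 (1.16 to 1.25).

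The 3 phosphofructokinase genes, which carry the committed step, did not move together. PFKM, the muscle-type subunit (chr12:48516352-48539887 in the table, build GRCh37), stood at 33.03 FPKM in the control and 46.4 FPKM in the knockdown. PFKP, the platelet-type subunit, stood at 49.0 against 48.0 FPKM, and PFKL, the liver-type subunit, at 9.07 against 9.45 FPKM. PFKM was therefore the only one of the 3 whose counting interval (1.35 to 1.46) left out 1, and its share of the summed phosphofructokinase FPKM was 44.5% in the knockdown against 36.5% in the control. The share of PFKP was 46.9% in the knockdown against 53.1% in the control although its own level was nearly equal, and its ratio of 0.03 turned negative when the libraries were rescaled by the median ratio. ALDOA, the main aldolase, which splits fructose-1,6-bisphosphate, was higher at 279 against 227 FPKM (FPKM ratio 1.23, interval 1.20 to 1.25). ALDOC, the brain-type aldolase, held only 3.76% of the aldolase sum in the control library and stood at 9.96 against 8.88 FPKM, with an interval of 0.960 to 1.31. The recovered length of ALDOC was 991 bases against a longest transcript of 1982, so this interval may be too wide.

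From triosephosphate isomerase to lactate dehydrogenase every enzyme gene was higher in the knockdown library. TPI1, which interconverts the 2 triose phosphates, stood at 298 FPKM against 237 FPKM in the control library, and PGK1, which makes the first ATP of the pathway, at 170 FPKM against 137 FPKM. GAPDH, which oxidises glyceraldehyde-3-phosphate and is often taken as a reference gene, stood at 1084 against 1029 FPKM. Its FPKM ratio of 1.05 (interval 1.04 to 1.07) was the lowest of the enzymes from triosephosphate isomerase onwards. PGAM1, the phosphoglycerate mutase (chr10:99186027-99193198, GRCh37), stood at 139 against 98.1 FPKM. This FPKM ratio of 1.42, a log2 ratio of 0.50, was the highest among the 38 measured members. The recovered reads of PFKP, TPI1, GAPDH, ENO1 and PKM were fractional, those of PGAM1 could not be recovered, and the values of these genes are less certain. All of them except PFKP have pseudogenes or close relatives in the table by symbol.

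In the last steps the FPKM ratios summed over isozymes were 1.15 for enolase, 1.11 for pyruvate kinase and 1.15 for lactate dehydrogenase. ENO1, the main enolase, stood at 754 against 656 FPKM, and ENO2, the neuron-type enolase that hypoxia induces, at 43.3 against 39.1 FPKM. Enolase kept its makeup, with 94.4% ENO1 in the control and 94.6% in the knockdown. PKM, the pyruvate kinase gene whose splice forms the table does not separate, stood at 569 against 513 FPKM. LDHA, the subunit that hypoxia induces, was at 262 FPKM in the control and 312 FPKM in the knockdown. LDHB, the other common subunit, was at 987 against 863 FPKM and made up 76.0% of the lactate dehydrogenase sum in the knockdown and 76.7% in the control. The LDHA to LDHB balance therefore shifted by only 0.70 percentage points towards LDHA.

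Summed over isozymes, 10 of the 11 steps were higher in the knockdown library and hexokinase was lower. The step ratios on the log2 scale ran from -0.10 for hexokinase to 0.50 for phosphoglycerate mutase, with a median of 0.21. The 17 enzyme genes together made up 0.847% of all FPKM in the control and 0.985% in the knockdown, and the sum itself was 4880 against 4289 FPKM. Of the 17 enzymes 14 (82.4%) had a log2 ratio above 0, against 50.0% of all measured genes. When rescaled by the median ratio 13 did, against 45.8%. The counting interval lay above 1 for 11 enzymes and below 1 for HK1 and HK2. It did so for 32.5% and 30.7% of all genes with recovered reads, many of them less abundant. The 9 enzymes with a mean at or above 100 FPKM were all higher, with a median log2 ratio of 0.25, whereas 52.9% of the 578 genes of that abundance were higher, with a median of 0.03. Of the 8 less abundant enzymes 5 were higher, against 44.1% of all genes at a mean of 1 to 10 FPKM and 57.6% at 10 to 100.

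**Figure D2:**
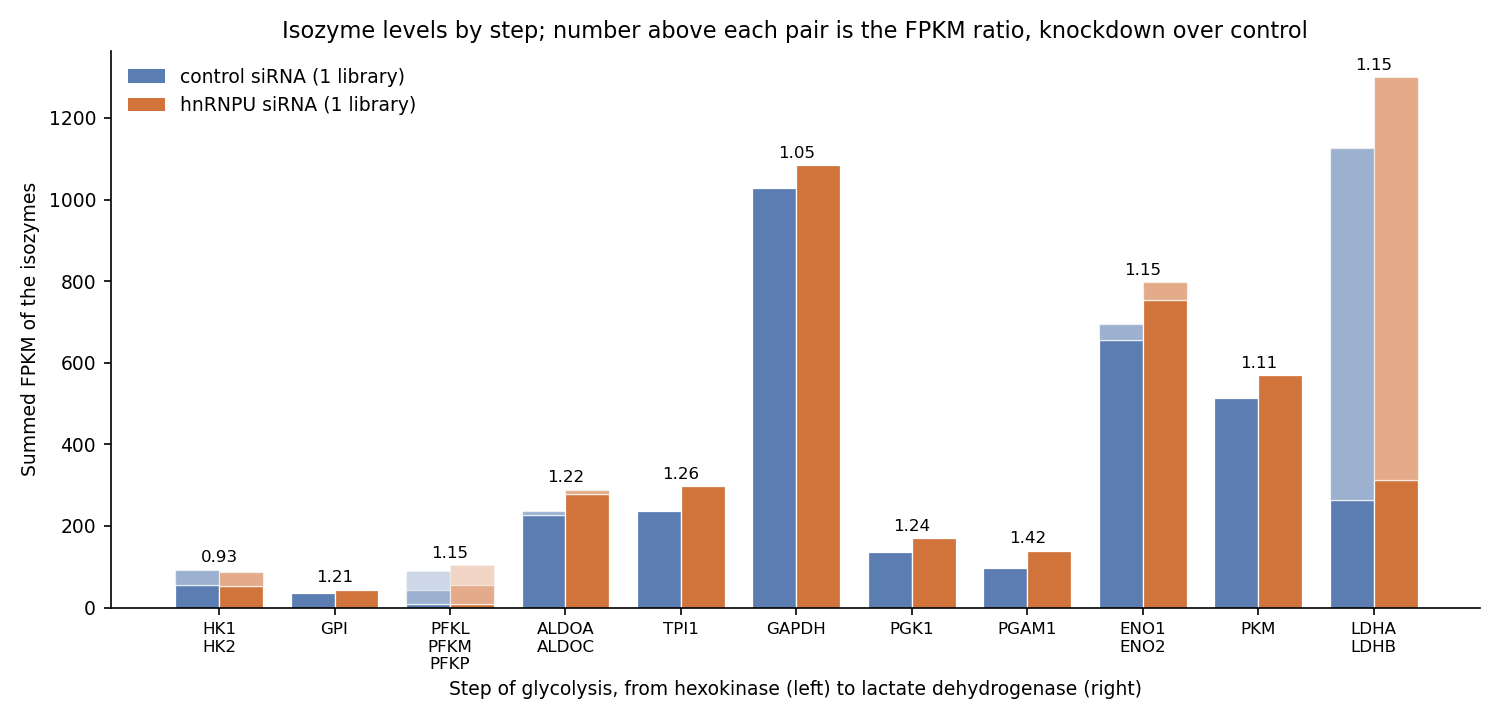
Summed FPKM of the isozymes at each step of glycolysis in the control siRNA library (blue) and the hnRNPU siRNA library (orange), from hexokinase on the left to lactate dehydrogenase on the right. Bars are stacked by gene in the order of the labels from the bottom, with lighter shades for further genes, and the number above each pair is the FPKM ratio, which is below 1 for hexokinase (0.933) and highest for PGAM1 (1.42).

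Of the 5 measured genes that sense oxygen or carry the response, EPAS1 was lower and the others slightly higher. HIF1A, the alpha subunit present in most cells (chr14:62162119-62214977, GRCh37), stood at 29.4 FPKM in the control and 37.97 FPKM in the knockdown. This was an FPKM ratio of 1.29 with an interval of 1.24 to 1.34. ARNT, the shared beta subunit, stood at 7.29 against 6.67 FPKM, with an interval of 1.01 to 1.19. EPAS1, which encodes HIF-2 alpha, was near the limit of the measured genes at 0.856 against 1.17 FPKM, on 176 and 193 reads, with an interval of 0.591 to 0.898. HIF1A thus made up 97.8% of the summed alpha subunit FPKM in the knockdown and 96.2% in the control. These are mRNA levels, and the alpha subunits are controlled largely by protein degradation, which was not measured.

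Of the oxygen sensors, EGLN1, the main prolyl hydroxylase of HIF1A and itself a hypoxia target, stood at 12.2 against 9.996 FPKM. Its FPKM ratio was 1.22 (interval 1.15 to 1.28). EGLN3, a hypoxia-induced prolyl hydroxylase, rested on 1 read in each library. KDM3A, a hypoxia-induced demethylase of histone H3 lysine 9, stood at 18.3 against 15.6 FPKM, with an interval of 1.07 to 1.28. In this group, then, the 2 measured genes were both higher by about the same ratio.

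Of the 4 secreted and membrane targets, CA9, CA12 and VEGFA were lower in the knockdown library and ADM was higher. CA9, the membrane carbonic anhydrase that serves as a common hypoxia marker (chr9:35673915-35681156, GRCh37), stood at 5.03 FPKM in the control and 2.83 FPKM in the knockdown. CA12, the second tumour-associated membrane carbonic anhydrase (chr15:63615730-63674075), stood at 1.69 against 2.73 FPKM. Both carbonic anhydrases were thus lower by similar proportions, with FPKM ratios of 0.561 (interval 0.460 to 0.684) and 0.620 (0.527 to 0.729). They were also among the least abundant members, and these ratios rest on 175 and 249 reads for CA9 and on 270 and 348 for CA12. VEGFA, the growth factor for blood vessels, was lower at 22.6 against 27.4 FPKM (FPKM ratio 0.826, interval 0.771 to 0.885). ADM, the vasodilator peptide adrenomedullin, stood at 11.2 against 9.51 FPKM, with an interval of 0.949 to 1.46 that included 1. The recovered length of ADM was 483 bases, against a longest transcript of 1889. Its reads may therefore be too few and this interval too wide.

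The mitophagy, collagen and stress targets were divided. NDRG1, a stress-responsive gene that hypoxia induces strongly, stood at 39.2 against 51.2 FPKM, an FPKM ratio of 0.766 (interval 0.737 to 0.795). BNIP3L, a mitophagy receptor of the mitochondrial outer membrane, stood at 14.6 against 17.5 FPKM (0.836, interval 0.789 to 0.886). Both were lower in the knockdown library. P4HA1 and P4HA2, the catalytic subunits of collagen prolyl hydroxylase, were both higher, P4HA1 at 18.6 against 14.99 FPKM and P4HA2 at 12.5 against 10.7 FPKM. Their intervals, 1.16 to 1.33 and 1.08 to 1.28, lay above 1. ANKRD37, a small ankyrin repeat gene induced by HIF1A, stood at 2.06 against 1.84 FPKM on 95 and 68 reads, and its interval of 0.809 to 1.55 included 1.

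Transport of glucose and lactate was also split between paralogues. SLC2A1, the main glucose transporter GLUT1, stood at 16.2 against 13.6 FPKM, an FPKM ratio of 1.19 (interval 1.12 to 1.27). SLC2A3, the high-affinity glucose transporter GLUT3, stood at 5.85 against 5.67 FPKM with an interval of 0.936 to 1.14, and its reads came out as fractions, the form that division among similar genes gives. SLC16A1, the monocarboxylate transporter MCT1, stood at 59.4 against 55.1 FPKM (interval 1.05 to 1.11). SLC16A3, the hypoxia-induced lactate exporter MCT4 (chr17:80193650-80197375, GRCh37), stood at 23.6 against 32.1 FPKM (interval 0.692 to 0.783). The 2 lactate transporters therefore had opposite signs, and MCT4 held 36.8% of their summed FPKM in the control and 28.4% in the knockdown.

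The regulators of flux showed no lower member beyond counting error. PFKFB3 makes fructose-2,6-bisphosphate, the activator of phosphofructokinase, and stood at 20.1 against 15.8 FPKM, an FPKM ratio of 1.27 (interval 1.21 to 1.34). PFKFB4, its paralogue, stood at 4.10 against 3.63 FPKM with an interval of 0.910 to 1.41. PDK1, the kinase that shuts pyruvate dehydrogenase, stood at 14.6 against 14.8 FPKM with an interval of 0.929 to 1.04. The log2 ratio of PDK1, -0.02, turned positive when the libraries were rescaled to the same FPKM sum.

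**Figure D3:**
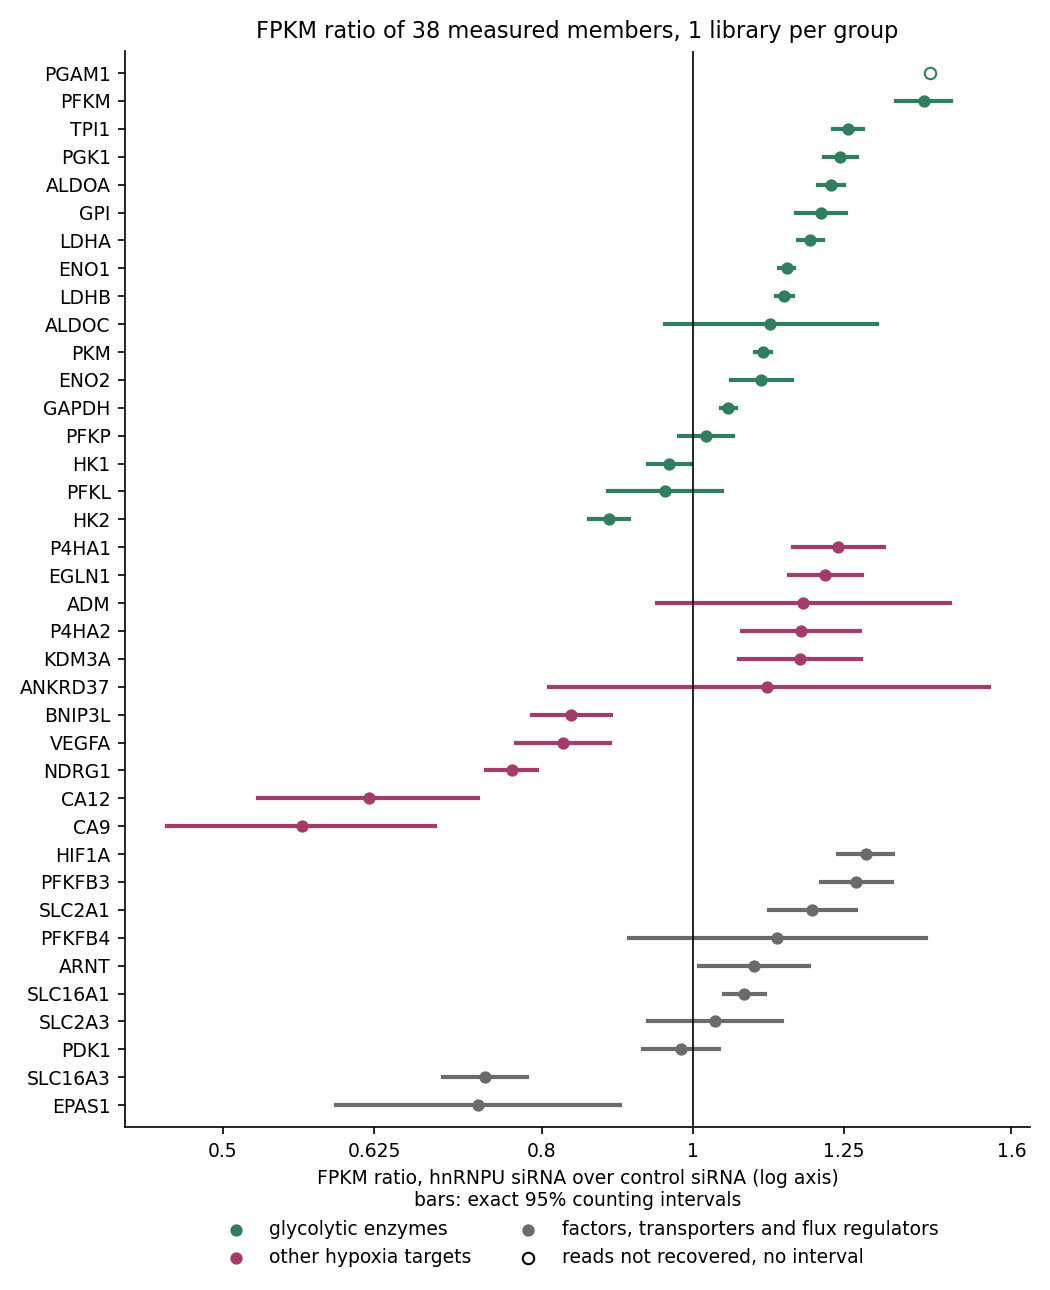
FPKM ratio of each measured member, hnRNPU siRNA library over control siRNA library, on a log axis, with exact 95% counting intervals as bars and PGAM1 as an open circle without one. Most glycolytic enzymes (green) lie between 1.05 and 1.42. The other hypoxia targets (purple) form a higher set from 1.12 to 1.24 and a lower set from 0.836 down to 0.561. In the higher set the bars of ADM and ANKRD37 include 1.

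Glycolytic enzymes and other hypoxia targets were then set side by side, which is the comparison the genes were assembled for. The 17 enzymes had a median log2 ratio of 0.19 (range -0.17 to 0.50), and the 11 measured targets one of 0.10 (range -0.66 to 0.29). The medians differed by 0.09, which is less than the spread within either class. That difference ran from -0.15 to 0.41 when the members of the 2 classes were set at opposite ends of their counting intervals. Separate counting errors would not all align in this way, so these are outer limits and not an interval. The median of the targets is the value of ANKRD37, on 95 and 68 reads. The difference was -0.02 at a minimum mean of 5 FPKM and 0.19 with no minimum, so its sign also depended on this limit. The sign of a difference in the centre of the 2 classes was therefore not settled here.

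The classes differed more in shape. Of the 11 targets 6 lay between 0.10 and 0.29 on the log2 scale, within the range of the enzymes, and the other 5 (CA9, CA12, NDRG1, VEGFA and BNIP3L) lay at -0.24 or lower, below every enzyme. The counting intervals of those 5 lay below 1, against 30.7% of all genes with recovered reads. Of the 6 higher targets 4 had an interval above 1, against 32.5% of all such genes. The intervals of ADM (0.949 to 1.46) and ANKRD37 (0.809 to 1.55) included 1 and so reached below 0.10 on the log2 scale. As single values, none of the 11 lay between -0.24 and 0.10. This gap holds for these 11 genes only. PDK1 (-0.02) and SLC2A3 (0.04), counted here with the flux regulators and transporters, lay within it. So did the median of the further hypoxia targets described below (0.07). The summed FPKM of the 13 targets was 156 in the knockdown library and 166 in the control library, a ratio of 0.936, against 1.14 for the enzymes. CA9, VEGFA and SLC16A3, which are often measured together with LDHA and SLC2A1 as readouts of HIF activity, thus had the opposite sign to LDHA (log2 ratio 0.25) and SLC2A1 (0.24) in these libraries. These members were grouped by their values after those had been seen, and the grouping has no test.

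Promoter sequences were read for the letters that hypoxia-inducible factors bind. RefSeq windows (GRCh38.p14) were matched by symbol for 35 of the 40 members, with 63 windows because several genes have more than 1 start, and the 250 bases before each start were searched for ACGTG on either strand, which reads CACGT on the strand shown. The palindrome CACGTG holds both and was counted from each. Of the 35 members 19 (54.3%) had a match in at least 1 window, 11 of 17 enzymes and 5 of 10 other targets among them, against 30.1% of 8001 measured genes and 21.7% of all 27305 genes. By window, 34.9% of the 63 held a match, against 23.2% of the 11635 windows of measured genes and 18.5% of all 35116 windows. The 18 measured members with a match had a median log2 ratio of 0.20 and the 15 without one a median of 0.19. Both medians leave out VEGFA, NDRG1, BNIP3L, SLC2A3 and SLC16A1, for which no window was found. VEGFA, NDRG1 and BNIP3L were among the lower targets, so these medians do not cover that set in full. Windows, picked after the values were seen, are shown for the highest and lowest member (PGAM1 and CA9), for 3 well-known HIF targets that were higher (PGK1, LDHA and EGLN1) and for SLC16A3, which was lower, with matches in capitals and, where RefSeq lists several, each gene's window with most matches chosen.
PGAM1, chr10:97427568-97427817, plus strand: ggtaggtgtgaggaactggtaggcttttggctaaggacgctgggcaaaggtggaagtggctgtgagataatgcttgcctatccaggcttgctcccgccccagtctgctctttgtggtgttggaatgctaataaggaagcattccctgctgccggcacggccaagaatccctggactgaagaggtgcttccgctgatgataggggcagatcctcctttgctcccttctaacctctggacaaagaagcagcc
PGK1, chrX:78103998-78104247, plus strand: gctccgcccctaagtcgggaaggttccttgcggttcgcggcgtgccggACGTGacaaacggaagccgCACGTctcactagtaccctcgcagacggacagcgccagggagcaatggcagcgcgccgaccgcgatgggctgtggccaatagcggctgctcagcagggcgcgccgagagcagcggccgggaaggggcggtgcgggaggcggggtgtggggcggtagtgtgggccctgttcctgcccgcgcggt
LDHA, chr11:18394313-18394562, plus strand: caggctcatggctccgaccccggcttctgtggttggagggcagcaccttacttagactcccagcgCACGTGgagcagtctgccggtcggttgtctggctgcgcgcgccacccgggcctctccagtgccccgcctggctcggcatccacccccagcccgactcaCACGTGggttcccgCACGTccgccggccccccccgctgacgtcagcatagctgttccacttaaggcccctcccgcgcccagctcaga
EGLN1, chr1:231422288-231422537, minus strand: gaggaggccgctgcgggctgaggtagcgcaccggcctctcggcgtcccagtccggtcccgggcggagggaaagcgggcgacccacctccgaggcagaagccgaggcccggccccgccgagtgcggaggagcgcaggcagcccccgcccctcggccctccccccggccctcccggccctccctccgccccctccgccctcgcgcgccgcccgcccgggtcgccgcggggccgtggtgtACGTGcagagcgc
CA9, chr9:35673678-35673927, plus strand: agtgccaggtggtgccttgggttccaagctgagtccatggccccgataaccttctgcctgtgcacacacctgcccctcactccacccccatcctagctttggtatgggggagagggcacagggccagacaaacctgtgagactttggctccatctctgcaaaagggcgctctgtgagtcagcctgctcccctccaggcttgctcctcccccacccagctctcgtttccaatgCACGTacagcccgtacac
SLC16A3, chr17:82228792-82229041, plus strand: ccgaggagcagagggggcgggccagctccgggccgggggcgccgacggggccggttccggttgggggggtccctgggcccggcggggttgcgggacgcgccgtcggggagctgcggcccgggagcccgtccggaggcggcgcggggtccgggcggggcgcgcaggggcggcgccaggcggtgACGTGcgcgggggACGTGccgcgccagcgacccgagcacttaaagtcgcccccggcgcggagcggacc

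The match in CA9, which was lower, begins 18 bases before the RefSeq start and that in EGLN1, which was higher, 13 bases before it. These are 2 picked genes and stand for no others. PGK1 has 2 matches, 202 and 183 bases before the start, and SLC16A3 has 2, at 68 and 55 bases. LDHA has the palindrome at 185 and at 87 bases and a further match at 73 bases. The window of PGAM1, the highest member, holds none, which says only that these letters are absent from these 250 bases. Windows were matched by symbol, and whether the RefSeq starts (GRCh38.p14) are those of the listed genes (GRCh37) was not tested, for PGAM1 or any other gene. A match is a description of sequence and not a bound site.

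Genes around the pathway were taken from lists of other members of each process, and their medians were small. Among HIF degradation and coactivation genes 4 of 15 measured had a log2 ratio above 0, against 50.0% of all measured genes. Their median was -0.12. TCEB2, the elongin B subunit of the ligase that ubiquitinates HIF alpha subunits, was the lowest at 111 against 198 FPKM (log2 ratio -0.83). Among genes that reached 5 FPKM in either library, the limit used for all genes named from these lists, the deubiquitinase USP20 came next (-0.26). EGLN2, the remaining prolyl hydroxylase (0.33), and the coactivator CREBBP (0.27) were the highest. VHL, the substrate receptor of that ligase, picked after its value was seen, stood at 8.30 against 9.79 FPKM with an interval of the FPKM ratio of 0.788 to 0.912.

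Further hypoxia targets, 30 of 41 of them measured, also held genes on both sides of 0. Of these, 18 of 30 were above 0, against 50.0% of all measured genes, with a median of 0.07. A log2 ratio of 0.5 or more was found in 4 and of -0.5 or less in 5 of the 30, against 5.4% and 6.41% of all measured genes. DDIT4, an inhibitor of mTORC1, stood at 10.9 against 21.1 FPKM (-0.89), and ERRFI1, a feedback inhibitor of the EGF receptor, at -0.72. TFRC, the transferrin receptor, was highest at 52.3 against 31.2 FPKM (0.73), followed by the vesicle trafficking gene TPD52 (0.62). ERO1L, the oxidase of disulfide formation in the endoplasmic reticulum and picked after its value was seen, stood at 67.1 against 44.2 FPKM. These targets therefore spanned -0.89 to 0.73 on the log2 scale, wider than the glycolytic enzymes.

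Routes that branch from glycolysis or follow it held genes on both sides of 0. Of all measured genes 50.0% were above 0. In the pentose phosphate pathway 7 of 9 measured genes were above 0 (median 0.10), led by the isomerase RPIA (0.52) and the transketolase TKT at 105 against 76.4 FPKM (0.46). PGLS, the lactonase of its oxidative branch, was the lowest (-0.25). In glycogen metabolism 7 of 11 were above 0 (median 0.12), from the phosphorylase kinase subunit PHKB (-0.61) and the liver-type phosphorylase PYGL (-0.55) to the kinase subunit PHKA1 (0.28) and the muscle-type synthase GYS1 (0.33). GYS1 and PYGL, which build and break glycogen, thus had opposite signs.

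In the list for pyruvate dehydrogenase and pyruvate entry, which also holds inhibitors of that enzyme, 4 of 12 measured genes were above 0, against 50.0% of all measured genes, with a median of -0.10. The counting interval of the FPKM ratio lay above 1 for 3 of the 12, below 1 for 5 and included 1 for 4. Among all genes with recovered reads it lay above 1 for 32.5% and below 1 for 30.7%. Among the subunits of pyruvate dehydrogenase, DLAT (0.48) and DLD (0.41) were the highest and PDHX (-0.53) the lowest, and the pyruvate carrier MPC1 stood at -0.24. In the tricarboxylic acid cycle 12 of 20 were above 0 (median 0.08). Its extremes were the citrate synthase gene CS at 54.8 against 36.5 FPKM (0.57) and IDH3A (0.54) on the higher side, and SUCLG2 (-0.66) and IDH2 (-0.50) on the lower side. For IDH2 77 and 91 reads were recovered, which may be too few because a factor shared by reads and length cannot be seen.

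The remaining glycolysis genes were mostly below the measured level, since 7 of 22 were measured, with a median of -0.01. GPD2, the mitochondrial glycerol phosphate dehydrogenase, was the lowest at 8.57 against 12.3 FPKM (-0.48). The others that reached 5 FPKM were BPGM (-0.01) and ADPGK (0.10). Of the other transport genes 3 of 7 measured were above 0 (median -0.10), against 50.0% of all measured genes. TXNIP, which promotes the removal of glucose transporters from the cell surface and rises with glucose, stood at 40.5 against 24.4 FPKM (0.71). BSG, the chaperone of both lactate transporters, stood at 86.7 against 75.5 FPKM (0.20), and EMB, which also accompanies such transporters, at -0.14.

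**Figure D4:**
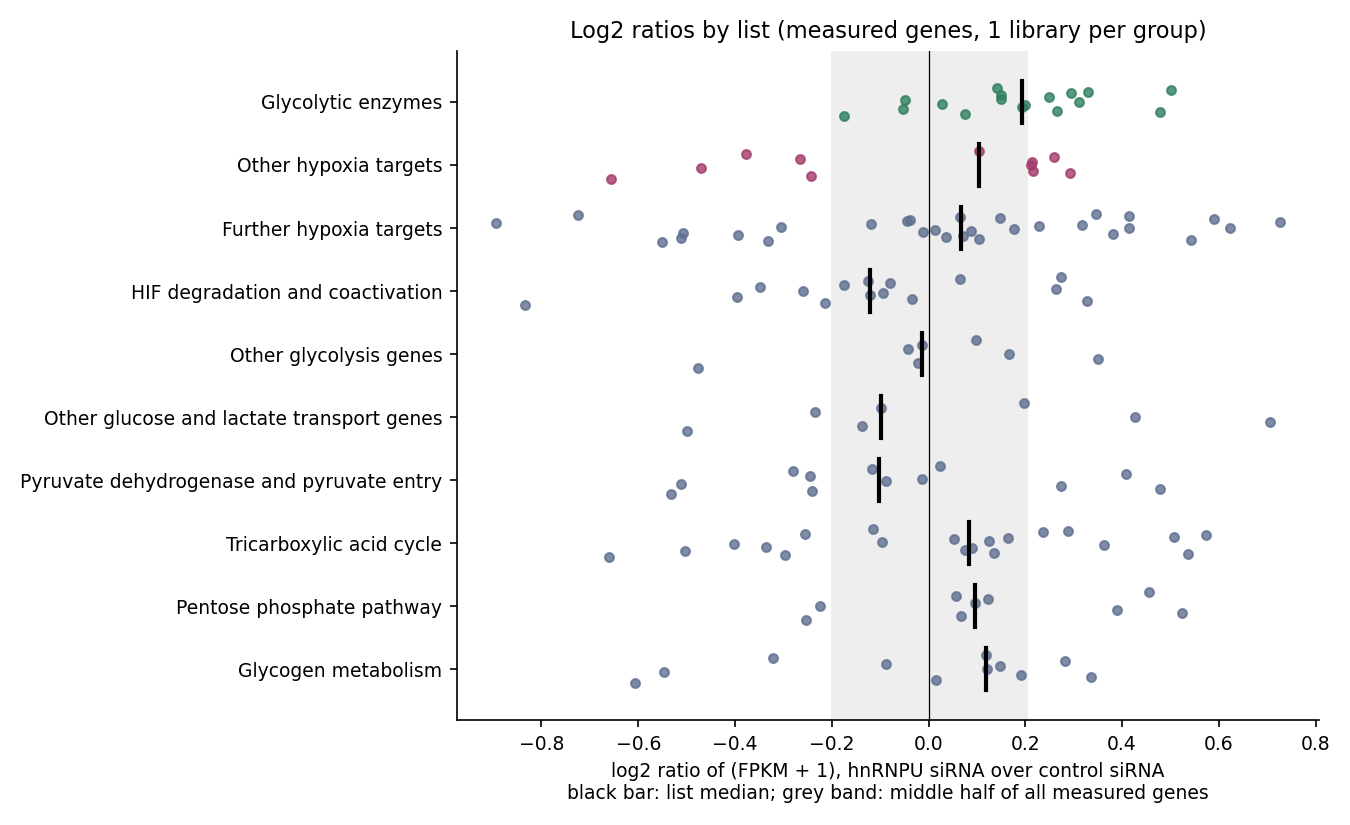
Log2 ratio of (FPKM + 1), hnRNPU siRNA library over control siRNA library, of each measured gene (points) in the glycolytic enzymes, the other hypoxia targets and 8 further lists, with list medians as black bars and the quartile range of all measured genes as a grey band. The enzymes have a median of 0.19 and a narrow spread, and no list median leaves the band. The points of the 11 other hypoxia targets, drawn without counting intervals, lie in 2 sets. The median of the further hypoxia targets falls between these sets.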

How the data were processed

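Total RNA of RKO cells was sequenced in 2 libraries, 1 per group, grouped by the treatment labels. The authors deposited 1 FPKM value per gene and library. The submitters' processing notes name Bowtie and build GRCh37. The sources used here do not state the annotation, the counting program or the use of strand. FPKM fixes depth and length as the authors defined them. A few abundant genes can shift all others, and the 10 highest held 23.3% and 22.5% of the FPKM sum.

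Ratios are log2 of (FPKM + 1), knockdown over control, with no further scaling. The pseudocount of 1 FPKM understates low genes. Depth was solved from noncoding genes under 400 bases, in which FPKM times length comes in whole multiples of 1 read. Whole reads, to a tolerance of 1e-06, were found in 72.2% of 571 and 70.4% of 608 such genes. Reads and lengths were then recovered as ratios of whole numbers for 16681 of 17552 genes above 0 in both libraries. A factor shared by reads and length cannot be seen, which widens some intervals, and 3539 genes had the fractional form of divided reads. Exact 95% Clopper-Pearson intervals cover counting error only. For a gene of 2 kilobases, 3 reads amount to 0.0472 and 0.0377 FPKM.

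The members and lists were chosen with earlier results of these data known. All 40 members were named, and from each further list the 2 genes at either end of the log2 ratios, provided that 1 of their levels reached 5 FPKM, and relatives of members listed at 1 FPKM or more. Some genes that this rule names are not reported here. Of 215 names, 207 matched. Scripts were tested on simulated data. Python 3.11.15, numpy 2.4.6, scipy 1.17.1 and pandas 2.3.3 were used. Alternatives were 3 other pseudocounts, 3 rescalings, 2 minimum levels and 2 exclusions of members.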

Additional observations from a re-analysis of the deposited data

How the results depend on the processing

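No paired analysis was possible because 1 control and 1 knockdown library carry no pairs. The exclusion of members listed on patch scaffolds was chosen after seeing the data, and the other alternatives were planned. The median log2 ratio of the glycolytic enzymes, 0.19, was 0.23 after rescaling to the same FPKM sum, 0.15 after rescaling by the median ratio and 0.17 without the members listed on patch scaffolds (TPI1, PGK1 and ENO2), all of which follow from the shift or from the members removed. Members at a log2 ratio of 0.5 or more numbered 1 as reported, 2 after rescaling to the same sum (PGAM1 and PFKM), and 0 with a pseudocount of 5 FPKM, after rescaling by the median ratio or the upper quartile, and without members with divided or unrecovered reads. Members at -0.5 or less numbered 1 as reported, 2 with a pseudocount of 0.1 or 0.5 FPKM (CA9 and CA12), and 0 with a pseudocount of 5 FPKM or a minimum mean of 5 FPKM. The HNRNPU log2 ratio of -1.65 was -1.61 at a pseudocount of 5 FPKM, and -1.62 and -1.69 after rescaling by sum and by median ratio. Rescaling by sum, median ratio and upper quartile shifted all log2 ratios by 0.03, -0.04 and -0.01. Of 222 values of the 37 members with a counting interval under other pseudocounts or scalings, 203 stayed within it, and 2 changed sign (PDK1 and PFKP). Those that left it belonged to EPAS1, CA9 and CA12 under other pseudocounts. Under rescaling they belonged to ALDOA, TPI1, GAPDH, PGK1, ENO1, PKM, LDHA and LDHB, whose narrow intervals do not cover the scaling. The log2 ratio of GAPDH, 0.08, was 0.11 after rescaling by sum and 0.04 by median ratio. ANKRD37, ADM and PFKFB4 had few recovered reads, 68 to 215 each. Whether depth or a factor shared by reads and length set these numbers was not tested. The recovered lengths were 483 bases for ADM and 1249 for PFKFB4, against longest transcripts of 1889 and 3586.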

Other observations

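BNIP3, the mitophagy receptor paired with BNIP3L, was listed at 0 in both libraries. Its row places it on a patch scaffold of the assembly and covers only bases 92776 to 93149 there. The longest transcript of BNIP3 has 3066 bases, so this 0 cannot be read as the level of the gene. Whether reads of BNIP3 were placed elsewhere was not tested. Of 1153 mRNA rows on such scaffolds, 449 were listed at 0 in both libraries. TPI1, PGK1 and ENO2 are also listed on patch scaffolds and had high values, but each of their rows spans more bases than that of BNIP3. EGLN3 stood at 0.0116 FPKM in the control and 0.00923 FPKM in the knockdown.

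Processed copies of glycolytic genes are common, and the table lists 61 GAPDH pseudogenes and 13 PGAM1 pseudogenes by symbol. Summed with the other close relatives of GAPDH and PGAM1, these rows held 2.01 and 1.44 FPKM for GAPDH and 2.49 and 3.03 FPKM for PGAM1 in the control and the knockdown library. The reads of TPI1, GAPDH, ENO1, PKM and PFKP had the fractional form of divided reads. SLC2A3P1, a pseudogene of SLC2A3, was listed at 16.1 FPKM in the control and 17.8 FPKM in the knockdown, above SLC2A3 itself. TPI1P1 stood at 4.16 against 2.30 FPKM, PGK1P1 at 2.18 against 1.44 FPKM and PGAM4 at 2.17 against 1.49 FPKM, each in the same direction as its parent gene. GAPDHP62 stood at 1.09 against 1.67 FPKM and ENO1P4 at 1.70 against 1.92 FPKM, opposite to theirs. HK2P1 stood at 1.05 against 1.01 FPKM. The part of such shared reads in the ratios was not tested, apart from the exclusion of the members with divided reads, which left the enzyme median at 0.19.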
